A study of Danio rerio with 14 samples.

Results

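The regions described here are H3K27ac peaks of wild-type (WT) zebrafish embryos that lay far from any strong H3K4me3 peak. They were chosen from the WT peak lists. H3K27ac peaks on chromosomes 1 to 25, without the stretch of chromosome 16 from 36 to 37 Mb, were ranked by fold enrichment, the ratio of ChIP signal at the peak summit to a local background, and the 10000 highest were called strong. A strong peak was called distal when no WT H3K4me3 peak overlapped it and no WT H3K4me3 peak of 5-fold enrichment or more lay within 20 kb. Of the 125602 WT H3K27ac peaks ranked, 1529 met this rule. They fell into 3 classes by the distance to the nearest such H3K4me3 peak, with 718 at 20 to 50 kb, 443 at 50 to 100 kb and 368 at over 100 kb. The other strong peaks were 1702 that lay within 20 kb without overlapping H3K4me3, called nearer peaks, and 6769 that overlapped a WT H3K4me3 peak, called promoter peaks. The last name rests on overlap with H3K4me3 of any strength and not on annotated gene starts.

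H3K27ac, an acetyl group on lysine of histone H3, is carried by nucleosomes beside enhancers and promoters in use, whereas trimethylation at another lysine, H3K4me3, is carried mainly by promoters. A peak of H3K27ac far from H3K4me3 is therefore the usual mark of a candidate distal enhancer, a stretch of DNA that can raise the transcription of a gene some way off. In zebrafish, the transcription factors Pou5f3 and Sox19b are deposited in the egg and bind many such elements at zygotic genome activation, when the embryo begins to transcribe its own genes.

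The series compared MZspg, MZsox19b and WT embryos, all of AB/TL background per the labels, at 4.3 hours post fertilization (hpf), dome stage by WT timing. MZspg embryos lacked maternal and zygotic Pou5f3 through homozygosity for the spg allele m793, and their parents had been raised to adulthood with injected Pou5f3 mRNA. MZsox19b embryos lacked maternal and zygotic Sox19b through the TALEN-made deletion allele m1434. Mutant embryos were staged by WT embryos of the same age and not by their own landmarks, and whole embryos were pooled, so a change in cell numbers and a change in the mark per cell cannot be told apart. H3K27ac was profiled in 1 MZspg, 2 MZsox19b and 1 WT library, and H3K4me3 in 1 library per genotype. Material of 2 ChIP experiments was pooled for the MZspg and for the WT H3K27ac library, and every other library came from 1 experiment.

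The lists differed in size, which bears on every share given here. On chromosomes 1 to 25, the H3K27ac lists held 122893 peaks over 57.2 Mb in MZspg, 141202 peaks over 89.3 Mb in MZsox19b replicate 1 and 173020 peaks over 109 Mb in replicate 2, against 125836 peaks over 50.8 Mb in WT. The lists hold no read counts, so no share could be adjusted for depth, and the read totals that the study tabulates for its libraries were not used here. Intervals given with shares are 95% intervals by the method of Wilson. They reflect counting error alone and treat neighbouring peaks as independent, which they are not. The MZsox19b replicates gave the only spread between libraries of a genotype, and no test between genotypes was made. Both mutants were compared with the same WT lists, so their results are not independent of each other.

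The limits of the rule cut through a continuous range. The distal peaks closest to H3K4me3 lay 20013, 20062 and 20068 bp away, and the closest peaks left out lay 19950, 19932 and 19818 bp away. The last distal peak by rank had a WT rank of 9987 and the first one left out a rank of 10004, both with 5.53-fold enrichment. Distal peaks made up 15.3% of the strong WT peaks and 36.2% of all WT peaks of any rank. The distance reached 594246 bp, with medians of 31191, 69911 and 151409 bp in the 3 classes.

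The 3 highest peaks of each class, chosen by their WT enrichment, show the range of what became of distal peaks in the mutants. At 20 to 50 kb, the peak at chr15:45941277-45942663 (danRer11) had 10.2-fold enrichment and rank 4611 in MZspg, 37.0-fold and rank 228 in MZsox19b replicate 1, and 20.4-fold and rank 1053 in replicate 2, against 31.0-fold and rank 20 in WT. The peak at chr14:21990594-21993266 had ranks of 1386 in MZspg and of 305 and 249 in MZsox19b, against 38 in WT. The peak at chr15:28708119-28710799 had ranks of 622 in MZspg and of 402 and 425 in MZsox19b, against 102 in WT. Each of these regions thus stayed among the 10000 highest peaks of every mutant list.

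At 50 to 100 kb, the highest peak was also the widest of its class, 7212 bp at chr21:19127223-19134434. It had 3.48-fold enrichment and rank 29896 in MZspg, 8.24-fold and rank 10184 in MZsox19b replicate 1, and 7.38-fold and rank 10065 in replicate 2, against 24.3-fold and rank 119 in WT. It therefore stood outside the 10000 highest peaks of all 3 mutant lists. The next in this class, chr23:9862714-9864507, had ranks of 423 in MZspg and of 2289 and 1794 in MZsox19b, against 443 in WT. The peak at chr8:52155777-52157074 had ranks of 1550 in MZspg and of 3420 and 3550 in MZsox19b, against 532 in WT.

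At over 100 kb, the highest peak, chr3:1903190-1903630, had rank 15099 in MZspg and ranks of 2003 and 672 in MZsox19b, against 21 in WT. It was narrow, at 441 bp, and lay 226751 bp from the nearest strong H3K4me3 peak. The second, chr13:17011738-17014228, lay 449873 bp away and had no overlapping MZspg peak of any strength. It had 12.0-fold and 7.76-fold enrichment in the MZsox19b replicates, at ranks 5856 and 9185, against 22.5-fold and rank 186 in WT. The third, chr6:56494804-56495950, had ranks of 2437 in MZspg and of 549 and 522 in MZsox19b, against 263 in WT.

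Before any share is read, 1 stretch of chromosome 5 has to be set apart, because it supplied 99 of the 1529 distal peaks, or 6.47%. The stretch, chr5:43120328-43282879, was set apart only once its values were known. Its 99 members formed a single cluster of 163 kb and were spaced evenly. The median distance between neighbouring summits was 1227 bp, and 85 of the 98 distances were within 10% of it. The members were narrow and alike, with a median width of 472 bp and quartiles of 453.5 and 491.5 bp. Another 11 strong WT peaks of the stretch were not distal because they overlapped a WT H3K4me3 peak. These 11 counted as promoter peaks, also where the 99 members were left out. By distance, 53 of the members belonged to the class of 50 to 100 kb, 45 to the class of over 100 kb and 1 to the class of 20 to 50 kb.

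The array, as this stretch is called here, was present in every genotype but stood at different ranks. The MZspg list held 131 peaks in it, with a median enrichment of 5.57-fold and a median rank of 12180. The MZsox19b lists held 113 and 112 peaks, with medians of 25.1-fold and 20.0-fold and median ranks of 1216 and 1124. The WT list held 126 peaks, with a median of 7.49-fold and a median rank of 5858. The regular spacing was found in each list, with 98 of 130 summit distances in MZspg, 95 of 112 and 95 of 111 in MZsox19b and 95 of 125 in WT within 10% of 1227 bp. The array hardly carried H3K4me3, with 1 peak of 2.05-fold enrichment in MZspg, 20 of at most 6.80-fold in MZsox19b and 15 of at most 2.94-fold in WT.

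**Figure D1:**
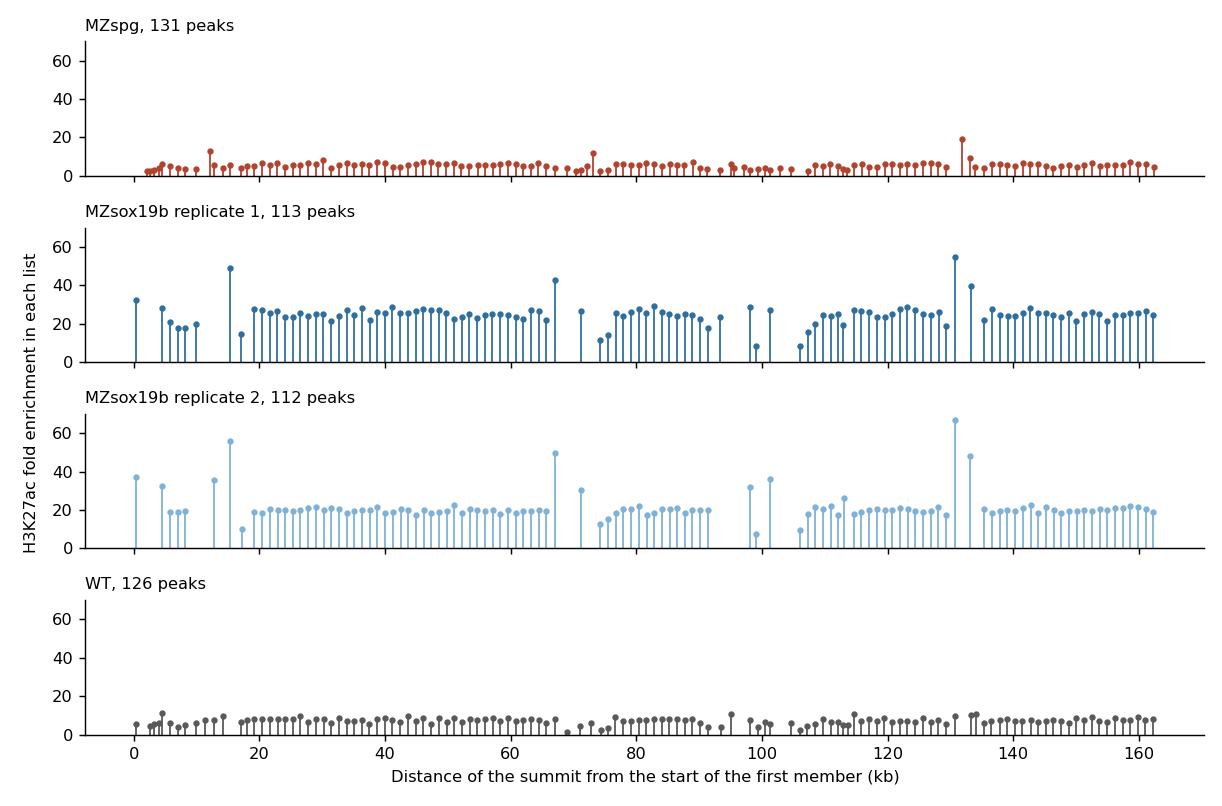
H3K27ac fold enrichment of each peak (vertical axis) against the distance of its summit from the start of the first member (horizontal axis, kb) in the chromosome 5 array, in MZspg, both MZsox19b replicates and WT; each stem is 1 peak. Most stems are evenly spaced in every list, with median enrichments of 5.57-fold in MZspg, 25.1-fold and 20.0-fold in the MZsox19b replicates and 7.49-fold in WT.

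In the MZsox19b lists, 100 and 107 peaks of the array were among the 2000 highest of the whole list, against none in WT, where the best rank was 2537, and 1 in MZspg. Of the 99 members, 98 overlapped an MZspg peak and all 99 overlapped a peak of each MZsox19b replicate. Fold enrichment varies with the depth and ChIP efficiency of each library and cannot be compared in size between lists, so the ranks carry this comparison. The evenness of the array and its difference between genotypes come from 1 locus, and why they differ was not tested. Presence, rank and width by class are given below with and without it.

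Presence in the mutants was scored first as an overlap of at least 1 bp with any mutant H3K27ac peak. Of the distal peaks, 435 of 1529 had no overlapping peak in MZspg, or 28.4% (95% interval 26.2 to 30.8%), against 18.2% (16.4 to 20.1%) of nearer peaks and 4.34% (3.88 to 4.86%) of promoter peaks. Over all 10000 strong peaks, the share missing from MZspg was 10.4%. Missing shares of distal peaks were smaller in MZsox19b, at 14.6% (12.9 to 16.4%) in replicate 1 and 11.1% (9.64 to 12.8%) in replicate 2, against 6.64% and 4.64% of nearer peaks and 1.82% and 1.40% of promoter peaks. Over all strong peaks, 4.59% were missing from replicate 1 and 3.44% from replicate 2. Distal peaks missing from both replicates numbered 148, or 9.68% (8.30 to 11.3%), against 4.05% of nearer peaks and 3.07% of all strong peaks.

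Distal peaks were thus missing more often than nearer and promoter peaks in each of the 3 mutant lists, by more than counting error. The excess over nearer peaks was 10.3 percentage points in MZspg (95% interval 7.38 to 13.2) and 5.63 points in MZsox19b, counting peaks missing from both replicates (3.89 to 7.42). Leaving out the array gave 12.2 and 6.30 points.

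Among the distal peaks, the missing share in the full mutant lists went up with distance from H3K4me3. In MZspg it was 23.3% (20.3 to 26.5%) at 20 to 50 kb, 32.7% (28.5 to 37.2%) at 50 to 100 kb and 33.4% (28.8 to 38.4%) at over 100 kb. In MZsox19b replicate 1 the shares were 12.8%, 14.9% and 17.7%, and in replicate 2 they were 9.05%, 11.7% and 14.4%. Nearly all of the array was present in every list, and without it the 3 MZspg shares became 23.2%, 37.2% and 38.1%. The MZsox19b shares without the array were 12.8%, 16.9% and 20.1% in replicate 1 and 9.07%, 13.3% and 16.4% in replicate 2.

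Over all distal peaks, the step in MZspg lay between 20 to 50 kb and 50 to 100 kb, where the intervals did not overlap. The 2 farther classes did not differ beyond counting error. By WT rank, the MZspg shares were 21.1%, 21.6% and 30.0% with growing distance among the 2500 highest WT peaks. They were 20.7%, 27.4% and 23.9% among the next 2500, and the class intervals overlapped in both bands. Without the array, this second band gave 20.7%, 33.3% and 27.9%, also with overlapping intervals. The step was thus not seen beyond counting error among these higher peaks. In the lower bands of 2500 ranks it ran from 17.8% to 32.1%, with separate intervals, and from 29.5% to 41.3%, with overlapping ones. Without the array it ran from 17.8% to 40.2%, again with separate intervals, and from 29.3% to 42.5%, again with overlapping ones. Peaks at over 100 kb were missing more often than peaks at 20 to 50 kb by 10.2 points in MZspg (4.52 to 15.9) and by 4.15 points for both MZsox19b replicates together (0.446 to 8.29). The MZspg difference was 4.19 points when 50% of the WT peak had to be covered by MZspg peaks, and 5.63 points among the 5000 highest WT peaks. The MZsox19b difference went to -0.0395 points when every WT H3K4me3 peak, however weak, set the distance, so no order of the classes is firm for MZsox19b.

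**Figure D2:**
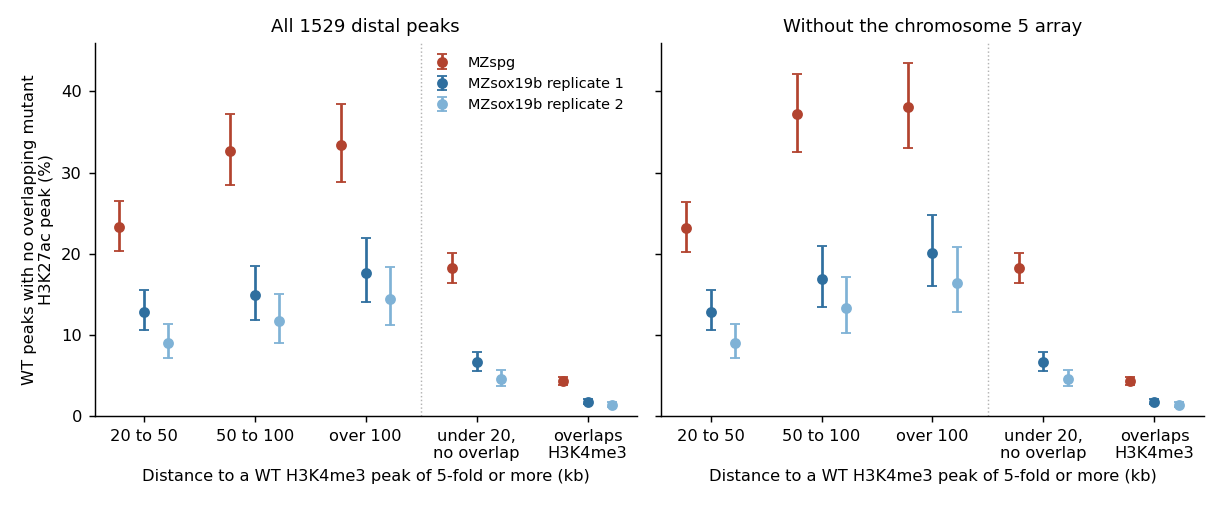
Share of strong WT H3K27ac peaks without an overlapping mutant H3K27ac peak (vertical axis, %) for the 3 distal classes, then for nearer and promoter peaks, in MZspg and both MZsox19b replicates, with all 1529 distal peaks (left) and without the chromosome 5 array (right); bars are Wilson 95% intervals. MZspg runs from 23.3% at 20 to 50 kb to 33.4% at over 100 kb with the array, against 18.2% of nearer and 4.34% of promoter peaks.

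Distal peaks were weaker in WT than promoter peaks, with median WT ranks of 6178 for distal, 5940 for nearer and 4400 for promoter peaks, so the shares were also set side by side within 4 bands of 2500 WT ranks. Among the 2500 highest WT peaks, 23.5% of 196 distal peaks were missing from MZspg (18.1 to 29.9%), against 11.3% of 266 nearer peaks (8.02 to 15.6%) and 1.13% of 2038 promoter peaks (0.753 to 1.69%). Among the 2500 lowest of the strong peaks, 35.8% of 517 distal peaks were missing (31.8 to 40.0%), against 20.6% of 538 nearer peaks (17.4 to 24.3%) and 9.27% of 1445 promoter peaks (7.88 to 10.9%). The distal share was the highest of the 3 groups in all 4 bands of all 3 mutant lists. In MZspg the intervals of distal and nearer peaks overlapped in the middle bands, at 23.2% against 16.7% and 26.3% against 20.4%. Without the array the distal shares there were 25.2% (20.7 to 30.3%) and 30.2% (26.0 to 34.8%). The nearer shares were 16.7% (13.5 to 20.7%) and 20.4% (17.0 to 24.2%). The intervals thus met in the first of these bands and were separate in the second. In MZsox19b the intervals overlapped in the highest band, at 8.67% against 3.76% in replicate 1 and 5.61% against 3.01% in replicate 2. They also overlapped in replicate 2 in the band after it, at 7.06% against 3.40%.

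**Figure D3:**
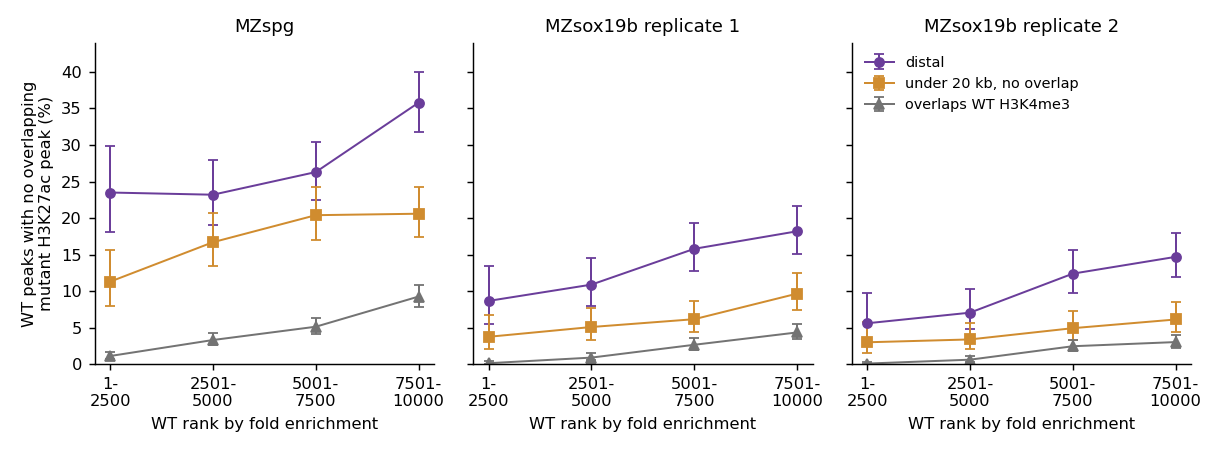
Share of strong WT H3K27ac peaks without an overlapping mutant H3K27ac peak (vertical axis, %) in 4 bands of WT rank by fold enrichment (horizontal axis) for distal, nearer and promoter peaks, 1 panel per mutant list; bars are Wilson 95% intervals. The array is included. Distal peaks lie above the others in each band, with 35.8% missing from MZspg in the lowest band against 20.6% of nearer peaks.

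The lower missing share in MZsox19b than in MZspg went together with the longer MZsox19b lists. When each mutant list was cut by fold enrichment to the 57.2 Mb that the MZspg list covered, which left 46723 and 37495 peaks of the MZsox19b lists, 30.0% (27.8 to 32.4%) and 34.3% (31.9 to 36.7%) of distal peaks were missing from the MZsox19b replicates, against 28.4% in MZspg. Missing from both replicates were then 27.5%. A smaller loss of distal peaks in MZsox19b than in MZspg was therefore not seen at equal covered length. This cut kept MZspg peaks down to 1.18-fold enrichment, but MZsox19b peaks only down to 3.18-fold and 3.43-fold. The excess of distal over nearer peaks held at this length, at 30.0% against 16.5% in replicate 1 and 34.3% against 18.6% in replicate 2. By class, the shares at this length were 30.5%, 28.4% and 31.0% in replicate 1 and 33.3%, 33.6% and 37.0% in replicate 2 with growing distance. Without the array they were 30.5%, 32.3% and 35.3%, and 33.3%, 38.2% and 42.1%. The class intervals overlapped in each of these cases. With lists of equal peak number, 122893 each, 11.8% of distal peaks were missing from both replicates, against 28.4% from MZspg. This sets absence from 2 lists beside absence from 1 list, and shares of each replicate at equal peak number are not given. Counted as absence from both replicates, the smaller loss in MZsox19b was thus seen at equal peak number, but at equal covered length the share was 27.5%.

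The MZsox19b replicates were also compared with each other, which gave the loss between libraries of 1 genotype in these long lists only. The same rule applied to replicate 1, with the MZsox19b H3K4me3 list, found 998 distal peaks. Of these, 0 lacked a peak in replicate 2, so that up to 0.301% could be missing, against 0 of all 10000 strong peaks of replicate 1. Applied to replicate 2, the rule found 1147, of which 5 lacked a peak in replicate 1, or 0.436%, against 0.0800% of all strong peaks of replicate 2. In the other direction between genotypes, the rule found 1563 distal peaks in MZspg, of which 232 had no WT peak, or 14.8% (13.2 to 16.7%), against 5.84% of all strong MZspg peaks. Of the distal peaks of the MZsox19b replicates, 9.12% in replicate 1 and 8.28% in replicate 2 had no WT peak, against 2.46% and 2.39% of all strong peaks of these lists. The WT list searched here covered 50.8 Mb, against 89.3 and 109 Mb of the replicate lists, so these shares are not on the scale of the replicate comparison. In the replicate lists themselves, 14.6% and 11.1% of WT distal peaks were missing. Of MZspg distal peaks, 17.9% and 15.1% were missing there, against 6.15% and 5.37% of all strong MZspg peaks. Distal peaks of another genotype were thus missing from the MZsox19b lists far more often than those of the other replicate. No replicate existed for the WT and MZspg lists.

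Presence as any overlap is generous to long lists, and the rank in the mutant list is a stricter reading. A member's mutant rank and enrichment, here and above, were taken from its highest overlapping mutant peak, whose summit may lie outside the member. Of the distal peaks, 30.4% (28.2 to 32.8%) overlapped 1 of the 10000 highest MZspg peaks, against 42.1% of nearer and 77.9% of promoter peaks. In MZsox19b these shares were 39.2% and 37.5% of distal peaks, against 53.0% and 54.1% of nearer peaks and 83.3% and 77.5% of promoter peaks. Over all strong WT peaks the shares were 64.6% in MZspg, 71.4% in MZsox19b replicate 1 and 67.4% in replicate 2. Most distal peaks that remained were therefore no longer strong, and the median rank of those present was 11754 in MZspg and 11522 and 13890 in MZsox19b, against 6178 for all of them in WT, the value on which they were selected. Peaks picked for being high in 1 list tend to stand lower in any other, so the fall in median rank as such was not read as a change.

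By class, the shares among the 10000 highest were 32.7%, 31.6% and 24.5% in MZspg with growing distance. In MZsox19b they appeared to go up with distance, at 35.7%, 42.7% and 42.1% in replicate 1 and 35.4%, 40.6% and 38.0% in replicate 2. The array decided this pattern. Without it the shares were 35.6%, 34.9% and 34.1% in replicate 1 and 35.3%, 32.6% and 29.4% in replicate 2, and 32.8%, 32.3% and 25.7% in MZspg. Likewise 36 distal peaks reached the 1000 highest of the MZspg list, or 2.35%, and 88 those of each MZsox19b list, or 5.76%, against 10.7% of all strong WT peaks in MZspg and 11.9% and 11.2% in MZsox19b. Without the array these were 36 distal peaks in MZspg and 60 and 61 in MZsox19b, or 2.52%, 4.20% and 4.27%.

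**Figure D4:**
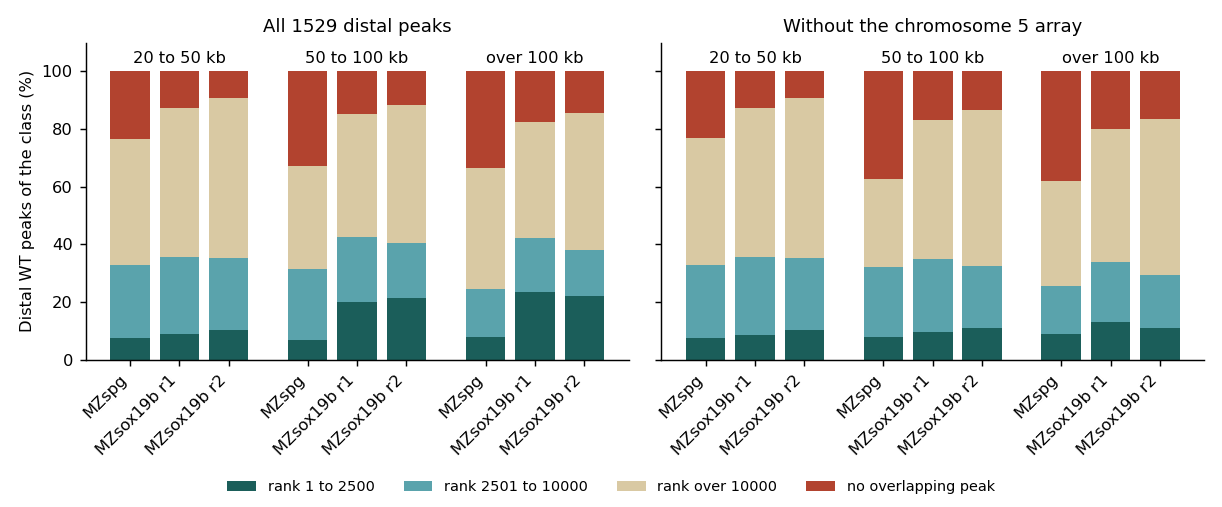
Share of distal WT peaks (vertical axis, %) by the rank of their highest overlapping peak in MZspg and in the MZsox19b replicates (r1, r2), for each distance class, with all 1529 distal peaks (left) and without the chromosome 5 array (right); red is no overlapping peak. The dark part of the MZsox19b bars beyond 50 kb shrinks without the array, whereas the MZspg bars change little.

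Some of the strongest distal peaks had no mutant peak. Of the 58 with a WT rank of 1 to 1000, 10 were missing from MZspg, 3 from MZsox19b replicate 1 and 0 from replicate 2, where 0 allows up to 5.17%. Of all 1000 WT peaks in this range, 2.30% were missing from MZspg, 0.500% from replicate 1 and 0.100% from replicate 2. Another 17 in MZspg and 12 and 21 in MZsox19b were present below the 10000 highest. In each of the 3 mutant lists, 9 of the 58 were still among the 1000 highest. The like shares of all 1000 WT peaks in this range are not given here, so these rank counts were not read as a trait of distal peaks.

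The highest distal peaks missing from MZspg and present in both MZsox19b replicates were chr13:17011738-17014228, given above, chr17:13859196-13861422 and chr2:18073114-18079187. The chromosome 17 peak had 8.89-fold and 7.19-fold enrichment in MZsox19b, at ranks 9105 and 10474, against 20.7-fold and rank 307 in WT. The chromosome 2 peak was 6074 bp wide in WT, lay 125898 bp from H3K4me3, and had ranks of 18787 and 20916 in MZsox19b, against 500 in WT. A WT-enriched region of that width thus had no MZspg peak of any strength within it.

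The highest distal peaks missing from both MZsox19b replicates and present in MZspg stood lower in WT. They were chr22:7504084-7505958, with rank 86622 in MZspg against 1958 in WT, chr2:27068092-27069449, with rank 59106 against 2019, and chr20:4326133-4326935, with rank 16475 against 2036. All 3 were thus weak in MZspg as well, with 2.38-fold, 2.68-fold and 4.67-fold enrichment.

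The highest distal peaks without an overlapping peak in any mutant list were chr17:33084778-33087801, chr21:16466775-16467681 and chr11:39067809-39070411. Their WT enrichment was 14.6-fold, 13.2-fold and 12.9-fold, at ranks 1250, 1716 and 1804. These 3 peaks were 1 from each distance class, at 78876, 201745 and 33865 bp from H3K4me3.

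Other distal peaks stood higher in a mutant than in WT. A rank above the WT rank was found for 289 distal peaks in MZspg, or 18.9%, against 25.5% of nearer, 46.9% of promoter and 39.0% of all strong peaks. The 3 that stood most above their WT rank in MZspg were chr19:38510122-38511296, chr4:30993456-30993785 and chr17:35174021-35174729. The chromosome 19 peak had 35.1-fold enrichment and rank 63 in MZspg, against 5.72-fold and rank 9321 in WT, and ranks of 20945 and 16617 in MZsox19b. Overlapping MZspg peaks covered 9304 bp, against 1175 bp of the WT peak, so the MZspg summit need not lie within the WT region. The chromosome 4 peak had rank 540 in MZspg against 9392 in WT, and the chromosome 17 peak rank 645 against 9050, each with MZsox19b ranks between those of MZspg and WT. At the chromosome 17 peak, overlapping peaks covered 9239 bp in MZspg and 9679 and 7313 bp in MZsox19b, against 709 bp in WT. Its mutant ranks thus need not belong to the WT region itself.

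In MZsox19b the corresponding peaks were chr15:15195321-15195770, chr4:38966557-38966970 and chr4:70350056-70350653. The chromosome 15 peak had 37.7-fold and 31.8-fold enrichment at ranks 200 and 170 in the replicates, against 5.58-fold and rank 9775 in WT, and it had no overlapping MZspg peak. Overlapping MZsox19b peaks covered 4673 and 9399 bp, against 450 bp of the WT peak. The replicate 2 peak of rank 170 also overlapped another distal peak, so these values need not belong to the WT region itself. The first chromosome 4 peak had ranks of 1221 and 117 in MZsox19b against 9770 in WT, and the second ranks of 494 and 506 against 9471. Their MZspg ranks were 20890 and 118619. Overlapping MZsox19b peaks covered 1274 and 1325 bp at the first, against 414 bp in WT. At the second they covered 2409 and 3479 bp, against 598 bp, so the same limit holds for both.

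Distal peaks were wide. Their median width was 1237 bp, close to the 1290 bp of nearer peaks and above the 922 bp of promoter peaks, and 11.2% of them were wider than 3000 bp, against 12.2% of nearer and 4.74% of promoter peaks. The class medians were 1382, 1162 and 1170 bp with growing distance. The narrow peaks of the array pulled down the farther classes, in which 20.1% and 18.8% of peaks were under 500 bp wide, against 9.75% at 20 to 50 kb. Without the array these 3 shares, in order of distance, were 9.76%, 11.5% and 9.91%, and the median widths were 1384, 1256 and 1347 bp. The distance to H3K4me3 thus made little difference to width outside the array.

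Missing shares were compared by width. Without the array, distal peaks of 1500 bp or more were missing from MZspg in 31.0% of cases (27.5 to 34.7%), and those under 1500 bp in 29.8% (26.8 to 33.1%). In MZsox19b replicate 1 the shares were 13.8% and 17.0%, and in replicate 2 they were 10.2% and 13.2%, with overlapping intervals. Nearer peaks split in the same way were missing from MZspg in 15.2% and 20.4% of cases. In MZsox19b these shares of nearer peaks were 4.79% and 8.02% in replicate 1 and 3.15% and 5.76% in replicate 2. The widest distal peaks, of 3000 bp or more, were missing less often from MZsox19b, in 8.19% of cases in replicate 1 (4.94 to 13.3%) and 5.26% in replicate 2 (2.79 to 9.70%), against 17.1% (14.4 to 20.2%) and 13.0% (10.6 to 15.8%) of distal peaks from 500 up to 1500 bp. These widest peaks also stood higher in WT, with a median rank of 3039 against 7020. In MZspg the shares were 24.6% (18.7 to 31.5%) and 30.6% (27.2 to 34.2%), with overlapping intervals. The step with distance in MZspg was found in both width groups, with 23.3%, 37.0% and 42.4% of the wider peaks and 23.1%, 37.3% and 34.6% of the narrower peaks missing with growing distance. Where present, the mutant peaks overlapping a distal peak had median summed widths of 1036 bp in MZspg and of 1391 and 1507 bp in MZsox19b. In 42.0%, 59.5% and 61.7% of cases this sum exceeded the width of the WT peak. Several mutant peaks entered the sum at 247, 206 and 243 distal peaks, and 84, 138 and 123 shared a mutant peak with another distal peak. Of all strong WT peaks present, the sum was larger for 63.9%, 82.5% and 82.2%, so a larger summed width was less frequent among distal peaks in each list.

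Distal peaks lay in groups. When members with gaps of 10 kb or less were linked, the 1529 peaks fell into 725 single peaks and 284 clusters, which held 804 peaks, or 52.6%. Of the clusters, 210 were pairs, 46 held 3 peaks and 15 held 5 or more. Without the array, 49.3% of peaks were in clusters, in like shares of the classes at 51.2%, 46.2% and 48.9%. Another strong WT peak of any kind lay within 10 kb of 56.4% of distal peaks, or 53.4% without the array, against 77.3% of nearer and 37.1% of promoter peaks. Counting WT H3K27ac peaks of any strength, a distal peak had a median of 8 other peaks within 10 kb, a nearer peak 9 and a promoter peak 4. Only 24 distal peaks, or 1.57%, had no other WT peak within 10 kb, against 0.294% of nearer and 9.60% of promoter peaks.

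**Figure D5:**
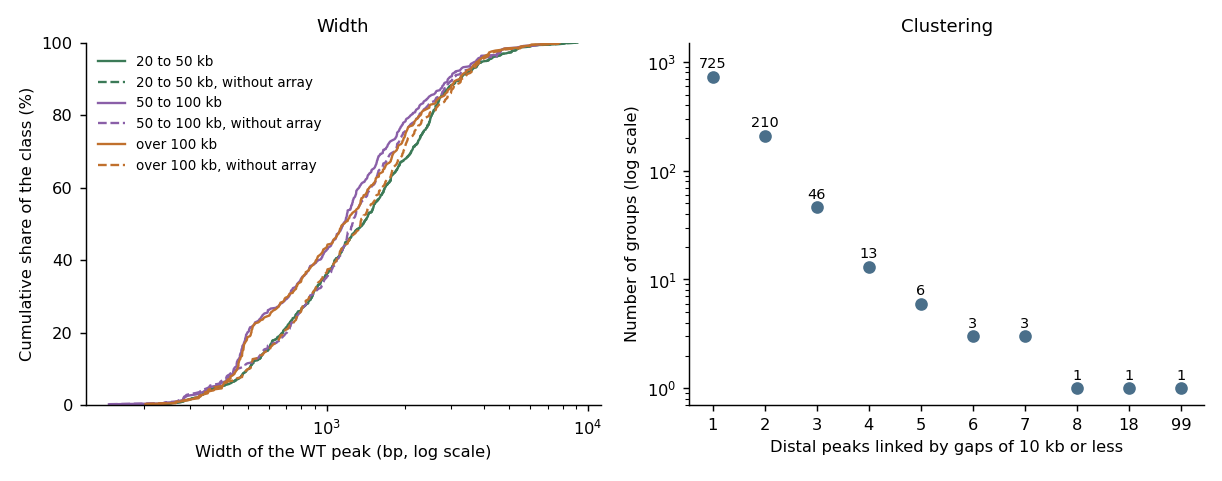
Left, cumulative share of distal WT peaks (vertical axis, %) by width (horizontal axis, bp, log scale) for each distance class, with and without the chromosome 5 array. Right, number of groups (vertical axis, log scale) by the number of distal peaks linked by gaps of 10 kb or less, with 725 single peaks, 210 pairs and 1 group of 99, the array.

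After the array, the clusters with most members were 18 peaks at chr17:23336676-23385799 and 8 peaks at chr15:33316652-33354702, and they behaved differently. All 18 peaks of the chromosome 17 cluster were present in every mutant list, at median ranks of 4726 in MZspg and 4164 and 2306 in MZsox19b, against 3464 in WT. Of the 8 peaks on chromosome 15, 1 was present in MZspg, at rank 52118, and all 8 were present in both MZsox19b replicates, at median ranks of 19584 and 24022, against 6528 in WT. The chromosome 15 cluster spanned 38.1 kb, and its peaks lay 74138 to 103618 bp from H3K4me3.

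Whole clusters could go missing. Of the 73 clusters of 3 or more members other than the array, 11 had no member left in MZspg, 44 kept every member and 18 lost some. In MZsox19b replicate 1, 3 clusters had no member left and 59 kept all, and in replicate 2 there were 0 and 62. By cluster size, 26.0% of the peaks in these clusters were missing from MZspg, against 34.5% of paired and 29.7% of single peaks. In MZsox19b replicate 1 these shares were 10.9%, 19.3% and 15.3%, and in replicate 2 they were 6.32%, 13.3% and 13.2%. Peaks of larger clusters also ranked higher in WT, with a median rank of 5540, against 5794 for pairs and 6643 for single peaks. Members of a cluster could overlap the same mutant peak, so their presence was not independent. The like values for clusters of nearer or of all strong peaks are not given here, so these were not read as a trait of distal peaks.

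The rule allowed weak H3K4me3 near a distal peak. A WT H3K4me3 peak of under 5-fold enrichment lay within 20 kb of 818 distal peaks, or 53.5%, and within 1 kb of 95. Outside the array, distal peaks with such a weak peak within 20 kb were missing from MZspg in 29.6% of cases, and those without one in 31.2%. In MZsox19b, peaks with one were missing in 12.8% of cases in replicate 1 and 9.08% in replicate 2, and those without one in 18.5% and 14.8%. The lack of even weak H3K4me3 within 20 kb thus went together with a higher missing share in the MZsox19b lists and not beyond counting error in MZspg. This split did not grade the distance.

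The H3K4me3 lists of the mutants had no part in the choice of the peaks. An MZspg H3K4me3 peak overlapped 14 distal peaks, or 0.916% (0.546 to 1.53%), and an MZsox19b H3K4me3 peak overlapped 142, or 9.29% (7.93 to 10.8%). Among nearer peaks, which by definition did not overlap WT H3K4me3 either, the shares were 1.12% and 19.3%. Over all strong peaks they were 56.9% and 68.5%. The overlapping H3K4me3 was mostly weak, with medians of 3.30-fold in MZspg and 2.96-fold in MZsox19b and an enrichment of 5-fold or more at 2 and 23 distal peaks. By class, MZsox19b H3K4me3 overlapped 9.61%, 8.13% and 10.1% of distal peaks, so the overlap showed no order with distance.

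Strong H3K4me3 of a mutant near a distal peak was more frequent in MZsox19b. A peak of 5-fold enrichment or more lay within 20 kb of 34 distal peaks in MZspg, or 2.22%, and of 303 in MZsox19b, or 19.8%, against none in WT by the rule. In MZsox19b these were 25.8%, 17.2% and 11.4% of the classes with growing distance. The whole lists differed in the same order, with 11248 H3K4me3 peaks of 5-fold or more in MZspg, 23307 in MZsox19b and 16071 in WT, and the part of list size in these shares was not tested. With 1 H3K4me3 library per genotype, none of these values has a replicate check. The like shares of nearer and of all strong peaks near strong mutant H3K4me3 are not given here, and the WT value was fixed by the rule. These counts were therefore not read as a trait of distal peaks.

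The local background behind the enrichment also differed among the peaks. In the WT list, fold enrichment took whole multiples of 0.0937 (within 0.005 of a step) wherever the background was at its lowest level for the list, which held for 74.8% of all WT peaks. Of the distal peaks, 125 had a background above this level, or 8.18%, against 6.93% of nearer, 18.9% of promoter and 15.2% of all strong peaks. Of the 125, 42 were in the array. Outside the array, the 83 distal peaks above the lowest background were narrower, with a median of 771 bp against 1350 bp for the other 1347, and 9.64% of them (4.97 to 17.9%) were missing from MZspg, against 31.6% (29.2 to 34.2%). Missing shares by background are not given here for the other strong peaks, so this difference was not read as particular to distal peaks.

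Chromosomes contributed unequally. Outside the array, the share of distal peaks among strong WT peaks was between 8.77% on chromosome 4 and 23.8% on chromosome 24, and chromosome 5 had 27.9% with the array and 11.6% without. The share of distal peaks missing from MZspg was lowest on chromosome 20, with 9 of 56, and highest on chromosome 25, with 13 of 28. In MZsox19b it was lowest on chromosome 4, with 3 of 84 in each replicate, and highest on chromosome 25, with 9 and 10 of 28. These are extremes of 25 small groups. The missing shares of all strong peaks by chromosome are not given here, so the extremes were not read as particular to distal peaks.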

How the data were processed

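ChIP-seq peak lists of 7 libraries were analysed, and their 7 inputs were not analysed here. Per the labels and methods, the authors mapped reads to danRer11 with Bowtie2 (2.3.2.2) and called peaks per library with MACS2 against pooled inputs. The deposited columns hold fold enrichment (a ratio), −log10 p and −log10 q values, a score of 10 times the −log10 q and the summit offset, and the authors' smallest −log10 q was 1.30. Peak numbers and fold enrichment vary with depth and ChIP efficiency, which these lists do not hold. Groups followed the sample titles. Overlaps, gaps and clusters were computed in Python 3 code with numpy and pandas, which was tested on simulated peaks. Shares carry Wilson 95% intervals, and 0 carries a limit of 3 counts. No p-values were computed, since 1 library stood for each genotype except MZsox19b H3K27ac. The distal peaks, groups and named peaks were chosen with earlier results of these data known. Named peaks were the 3 highest of each class, the 3 highest of each pattern of absence, the 3 largest clusters and the 3 with the largest gain in rank per mutant. No genome or annotation of this build was used here, so no sequences or genes are given. Ranks in mutant lists include the chromosome 16 stretch.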

Additional observations from a re-analysis of the deposited data

Results flagged for a closer look

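Data outside the comparisons also held distal signal. On sequences other than chromosomes 1 to 25, 1315 WT H3K27ac peaks reached the enrichment of the weakest strong peak, and 211 of them met the same distance rule. Of the 211, 24 lay on sequences without any WT H3K4me3 peak of 5-fold or more, where the distance has no end point. In the stretch of chromosome 16 that was left out, 52 peaks reached that enrichment and 0 met the rule. These peaks were not compared between genotypes.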

How the results depend on the processing

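No paired analysis was possible because the replicate numbers of the 2 MZsox19b H3K27ac libraries are shared with their inputs only, and no test was made. The planned window for sequence was not run, since no genome of this build was used here. The missing share of distal peaks stayed above that of nearer peaks under every alternative run, by 8.64 to 12.2 points in MZspg and by 2.87 to 12.6 points in MZsox19b (missing from both replicates). Depth limits all presence calls, since an absent peak may be a weak one.

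The share missing from MZspg was 46.8% when 50% of the WT peak had to be covered, 35.1% when the WT summit had to lie in a mutant peak and 24.5% when a peak within 1000 bp sufficed, and the share for MZsox19b was 22.0%, 13.1% and 7.39%. Coverage of 50% put the MZspg difference between over 100 kb and 20 to 50 kb at 4.19 points and the MZsox19b excess over nearer peaks at 11.9 points. At equal peak number the MZsox19b share was 11.8%, and at equal covered length 27.5%, with an excess of 12.6 points. With the 5000 highest WT peaks, the MZspg share was 23.3%, the MZsox19b share 5.97% (excess 2.87 points), the median width 1836 bp and the clustered share 38.8%. With 20000 these were 34.5%, 15.1% (7.74 points), 821 bp and 60.1%. Ranking by −log10 q gave 25.6% missing from MZspg and 42.8% among the 10000 highest of MZsox19b (mean of both replicates).

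With every WT H3K4me3 peak setting the distance, 711 peaks were distal, 30.8% were missing from MZspg and 13.1% from MZsox19b (8.16 points), the median width was 1423 bp, 47.8% were clustered, and the MZsox19b difference between the farthest and nearest class was -0.0395 points. Gaps of up to 5000 and 20000 bp put 48.5% and 56.8% of peaks in clusters. Within 1000 bp, mutant H3K4me3 was found at 1.90% of distal peaks in MZspg and 14.5% in MZsox19b, and with 5-fold or more at 0.131% and 1.50%. Leaving out either MZsox19b replicate gave missing shares of 11.1 to 14.6%, an excess of 6.48 to 7.95 points, a class difference of 4.85 to 5.35 points and 37.5 to 39.2% among the 10000 highest.

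Chosen after seeing the data were 4 more alternatives. Without the array, the median width was 1318 bp, the clustered share 49.3% and the MZsox19b share among the 10000 highest 34.1%. With only the peaks at the lowest background that last share was 34.5%. With 1 peak per cluster it was 35.1%, the median width 1358 bp and the MZsox19b H3K4me3 overlap 11.4%. Ranking before leaving out the chromosome 16 stretch gave 1517 distal peaks and kept the presence, width and clustering values within their intervals, and the rank and H3K4me3 values were not rerun. The causes of these moves were not tested.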
